A study of Mus musculus with 16 samples.

Results

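The genes described here are 36 mouse genes for receptors of glutamate and GABA, the main excitatory and inhibitory transmitters of the brain. They were taken as a named list: 3 AMPA, 5 kainate, 1 delta and 7 NMDA receptor subunits, 7 metabotropic glutamate receptors, 9 GABA-A, 2 GABA-rho and 2 GABA-B receptor genes. Of the 36 genes, 35 had at least 1 H3K27me3 consensus peak within 2 kb of the gene span, with 618 distinct peaks of 102957 in all. Gabbr1, which encodes the GABA-binding subunit of the GABA-B receptor, had none. A peak lay at 97.2% of these genes, and at 54.2% of the 21631 protein-coding genes. These shares are not matched for gene length. Of the 35 genes with a peak, 25 spanned 50 kb or more, up to 922 kb, and the part of length was not tested.

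The mark was measured by ChIP-seq. The cells were mouse embryonic stem cells, kept on gelatin in medium with serum, LIF, PD0325901 and CHIR99021. The 4 lines were Firre KO cells with an inducible Firre transgene (KO transgene), cells labelled Firre KO without it (KO control), WT cells with the transgene (WT transgene) and WT cells (WT control). All were given doxycycline, the inducer, and were sampled at 48 h and 0 h. Firre is a long non-coding RNA made from the X chromosome, and the study asked what its loss and its induction do. Each of the 8 conditions had 1 H3K27me3 library and 1 input library of sheared, unselected DNA. No label says whether a line was 1 clone or whether times came from separate cultures, so p-values measure a spread between these libraries that may be technical.

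H3K27me3 is laid down by Polycomb repressive complex 2, and in embryonic stem cells it covers many genes that are silent there and are used later in a particular lineage. The ionotropic receptors are ion channels built from several subunits, so that AMPA, kainate and NMDA channels open on binding glutamate and GABA-A and GABA-rho channels pass chloride on binding GABA. The metabotropic glutamate receptors and the GABA-B receptor act through G proteins, and most of these genes are known for expression in neurons or retina.

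The windows around the gene starts show how unlike these promoters are. RefSeq GRCm38.p6, the same build as mm10, had a promoter window for 27 of the 36 genes, from 250 bases before to 50 bases after the start. The windows below belong to the gene with the highest H3K27me3 over input (Grm2), a gene whose start carried less than its far end (Grin1), the gene whose KO over WT change passed the test against input (Grik3), the gene with the lowest ratio (Gabra6) and the gene with no peak (Gabbr1, chosen after its values were seen). They are written 5′ to 3′ on the strand of the gene, and capitals mark CG dinucleotides.
Grm2: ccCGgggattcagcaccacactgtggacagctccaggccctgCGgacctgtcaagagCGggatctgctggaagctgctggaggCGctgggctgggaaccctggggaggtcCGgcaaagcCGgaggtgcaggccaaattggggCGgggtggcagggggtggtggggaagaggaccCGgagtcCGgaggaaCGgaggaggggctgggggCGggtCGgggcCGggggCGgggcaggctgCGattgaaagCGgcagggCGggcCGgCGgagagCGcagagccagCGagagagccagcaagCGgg
Grin1: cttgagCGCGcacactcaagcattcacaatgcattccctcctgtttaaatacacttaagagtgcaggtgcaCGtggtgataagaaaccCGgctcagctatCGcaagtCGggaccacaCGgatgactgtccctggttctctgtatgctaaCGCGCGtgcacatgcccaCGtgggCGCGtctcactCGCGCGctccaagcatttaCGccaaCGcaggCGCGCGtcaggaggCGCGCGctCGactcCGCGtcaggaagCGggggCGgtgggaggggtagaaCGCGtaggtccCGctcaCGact
Grik3: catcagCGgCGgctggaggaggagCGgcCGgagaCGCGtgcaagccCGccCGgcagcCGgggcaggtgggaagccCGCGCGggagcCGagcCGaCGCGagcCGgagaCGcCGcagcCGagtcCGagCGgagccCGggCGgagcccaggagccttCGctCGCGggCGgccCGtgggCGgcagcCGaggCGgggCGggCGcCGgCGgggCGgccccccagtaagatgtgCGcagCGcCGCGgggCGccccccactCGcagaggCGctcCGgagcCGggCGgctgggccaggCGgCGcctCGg
Gabra6: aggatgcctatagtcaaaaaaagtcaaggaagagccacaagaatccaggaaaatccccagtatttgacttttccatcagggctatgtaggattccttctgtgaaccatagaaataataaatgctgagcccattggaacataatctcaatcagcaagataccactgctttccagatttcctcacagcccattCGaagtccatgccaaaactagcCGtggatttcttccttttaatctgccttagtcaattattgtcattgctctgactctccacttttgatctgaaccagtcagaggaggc
Gabbr1: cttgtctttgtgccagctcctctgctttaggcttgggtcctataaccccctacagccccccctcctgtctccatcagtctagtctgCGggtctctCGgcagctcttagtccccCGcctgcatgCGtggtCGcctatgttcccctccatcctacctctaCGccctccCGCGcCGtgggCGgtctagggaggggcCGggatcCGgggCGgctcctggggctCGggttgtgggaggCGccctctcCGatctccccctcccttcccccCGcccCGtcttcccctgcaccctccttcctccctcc

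The Grm2 window (chr9:106656060-106656359, minus strand) held 22 CG dinucleotides. The Grin1 window (chr2:25319138-25319437, minus strand) held 33. The Grik3 window (chr4:125490446-125490745, plus strand) held 50, the most among the windows of these genes that lay in a peak. The Gabra6 window (chr11:42321023-42321322, minus strand) held 2, the fewest among them, as did those of Gabrr2 and of 1 start of Grm8. The Gabbr1 window (chr17:37045716-37046015, plus strand) held 18. Some genes had several starts, so the receptor genes had 33 windows. The median was 12.5 over the 30 of them whose start lay in a peak, against 10 over the 5837 such windows of all protein-coding genes and 15 over the 15208 windows whose start lay outside peaks. Across 24 genes with a peak over the start, the CG count and the H3K27me3 ratio of that peak had a Pearson r of 0.163 and a Spearman rho of 0.08. These are values across genes, which share libraries and are not independent.

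The windows were also searched on both strands for TTCAGCACC and GGACAGC, the left and right parts of the element bound by the repressor REST, which keeps many neuronal genes silent outside neurons. TTCAGCACC was found in 88 of 21263 windows (0.414%), and Grm2 was the 1 receptor gene among them. In Grm2 both parts stood on the strand of the gene from -242 to -220 relative to the start, as TTCAGCACCacactgtGGACAGC, with capitals for the parts and 7 bases between them. GGACAGC was in 6.88% of windows, and among the receptor genes in Grm2 and Gria2. Gria2, an AMPA subunit, held TTTAGCACCGCGGACAGC on the opposite strand from -171 to -154. It was found by a search for both parts joined over 2 free bases, with 1 base of the left part left free. That search was written after the Gria2 window had been read, and 4 windows (0.0188%) met it. With the left part exact, 2 windows met the joined form, and 0 of the receptor gene windows did. The parts in Grm2, with 7 bases between them, do not meet it. Such matches describe letters, not binding.

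Libraries held 10380781 to 14787938 counts in consensus peaks for H3K27me3 and 3340654 to 6244333 for input, the lowest of each being the line labelled KO control at 0 h. Input at the 1 peak over Firre, relative to the mean of chromosome X, was 10.7 in the KO transgene line, 11.1 in the line labelled KO control, 14.9 in the WT transgene line and 0.694 in the WT control line. The input of the line labelled KO control thus went against its label. Calls of receptor genes in H3K27me3 for KO over WT, transgene and time are given with and without it. Induction, the tests of and against input, the interaction terms, single peaks and the related lists are given with it only. Whether the label of the WT control line is also in question cannot be told from its 9 counts there. That line enters every KO over WT value except those between the transgene lines alone, 1 line against 1 line, and those without the line labelled KO control. The latter also rest on the transgene lines, since the transgene term of that fit takes up the WT control line. Between the transgene lines alone, 6 receptor genes were higher and 3 lower. Over all regions edgeR called 1700 between them, higher or lower, against 2430 with all lines. Chromosome 11 took 11.1% of input counts in the line labelled KO control and 9.96% to 9.98% in the KO transgene line. In the WT lines it took 8.25% to 8.46%. The 5 receptor genes there (Gria1, Grin2c, Grm6, Gabra6 and Gabrb2) are therefore shown apart. The label of embryonic stem cells was set against the mark: 1 of 8 pluripotency genes and 1 of 12 housekeeping genes had a peak, while 6 of 6 neural regulators and 15 of 15 Hox genes had one.

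H3K27me3 over input was spread widely among the receptor genes. Each value is a ratio of CPM (counts scaled to the total of the library) within the consensus peaks, so that 1 marks the average consensus peak and not unmarked DNA. The mean ratio over the 8 conditions ran from 0.773 to 1.92 with a median of 1.02 over the 35 genes, against a median of 0.967 over all 18362 gene regions. H3K27me3 exceeded input in 14 of 35 genes and fell short of it in 9 in edgeR's quasi-likelihood test, at an adjusted p under 0.05 (Benjamini-Hochberg). Of all 18360 regions tested, 28.7% were called higher and 37.5% lower.

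**Figure D1:**
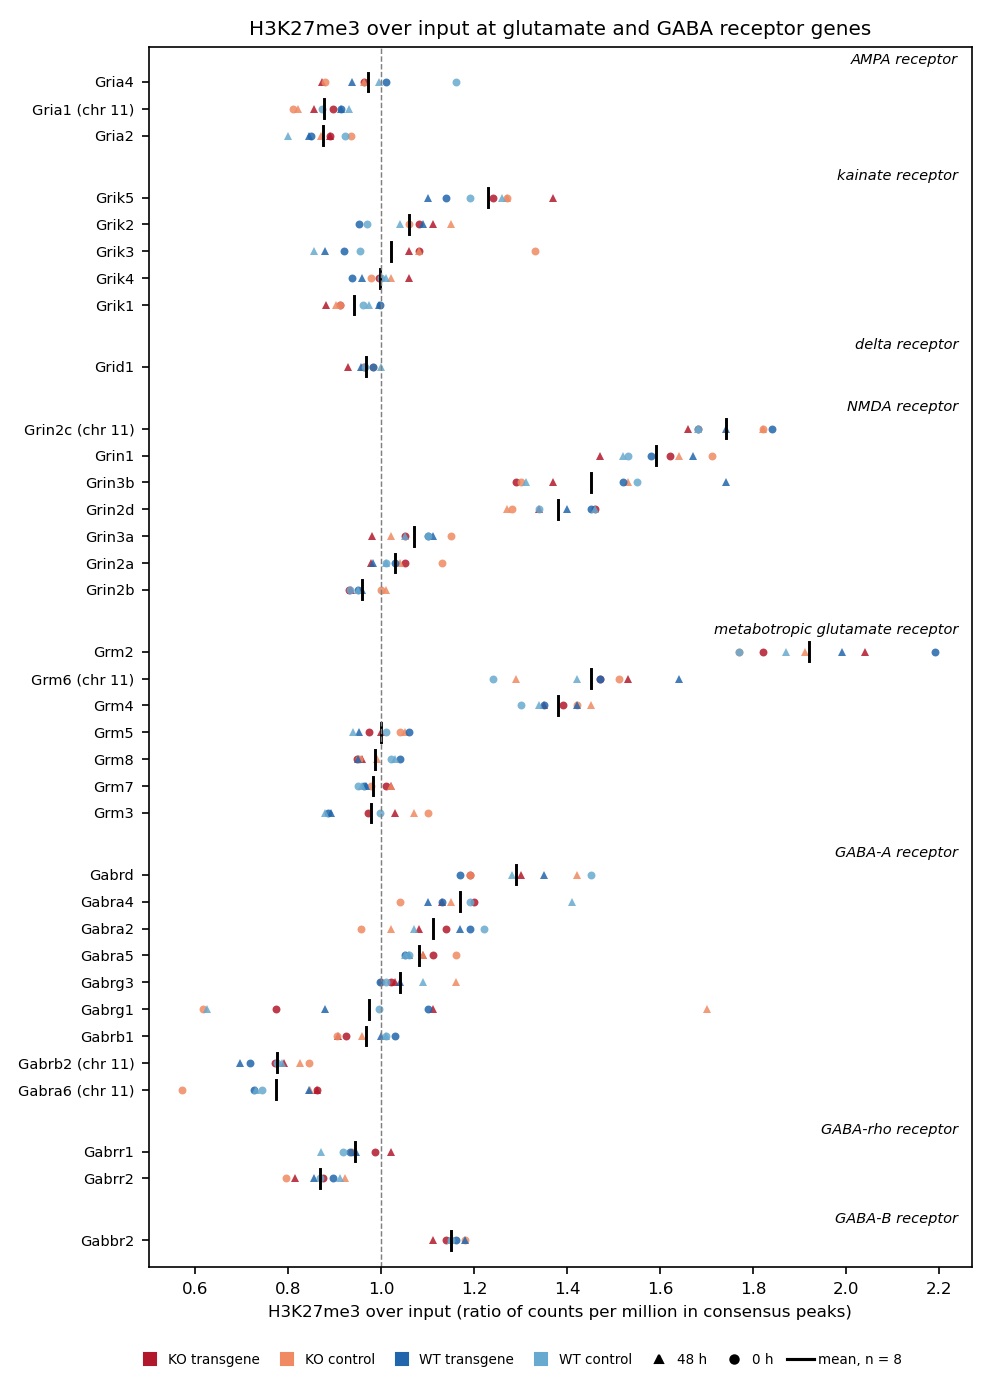
H3K27me3 over input (x axis, ratio of CPM in consensus peaks) for the 35 receptor genes with a peak (rows, grouped by receptor family), with 1 point for each line and time and a bar for the mean of 8 conditions. Grm2 lay farthest right, between 1.77 and 2.19, and Gabra6 and Gabrb2 farthest left, with means of 0.773 and 0.775.

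The NMDA receptor genes carried the most H3K27me3 of the ionotropic families, with a median ratio of 1.38 over 7 genes. Grin2c, a glutamate-binding subunit used in cerebellum, had ratios of 1.66 at the lowest, 1.71 at the median and 1.84 at the highest (mean 1.74 ± 0.0770, SD, n = 8 conditions). Its log2 ratio in the fit was 0.80 ± 0.03 (SE, adjusted p = 1.78e-28, edgeR). Grin1, the subunit that every NMDA channel contains, ran from 1.47 through a median of 1.60 to 1.71 (mean 1.59 ± 0.0805). Grin3b, a glycine-binding subunit known from motor neurons, ran from 1.29 through 1.45 to 1.74 (mean 1.45 ± 0.161). All 8 conditions of these 3 genes lay above 1. Their fitted log2 ratios were 0.67 ± 0.03 for Grin1 and 0.54 ± 0.06 for Grin3b, with adjusted p of 2.03e-26 and 3.24e-12 by edgeR. Grin2d, the subunit of early brain and interneurons, averaged 1.38 ± 0.0780. Grin3a was called higher at a mean of 1.07 ± 0.0558, Grin2a had 1.03 ± 0.0498 and was not called, and Grin2b, the main glutamate-binding subunit before birth, was called lower at 0.959 ± 0.0322.

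Several of these regions are not those of a receptor alone. The single peak of Grin2c (chr11:115248061-115269822, 21.8 kb) also served Fdxr, and the single peak of Grin3b (chr10:79969778-79978239, 8.46 kb) also served Wdr18 and Tmem259. The single peak of Grm6 also served Zfp454. In Grin2a, Grin2b and Grin3a the highest peak stood at 1.5 ± 0.139, 1.29 ± 0.0977 and 1.54 ± 0.159, well above the mean of the gene, which covers 27, 41 and 12 peaks. The value of such a gene is thus mostly that of its lower peaks.

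Among the metabotropic receptors the ratio was split. Grm2, which couples to inhibitory G proteins and curbs transmitter release, had the highest ratio of all 35 genes, with 1.77 at the lowest, 1.89 at the median and 2.19 at the highest (mean 1.92 ± 0.146, log2 0.94 ± 0.05, adjusted p = 1.54e-23, edgeR). The whole signal lay in 1 peak (chr9:106646448-106656145, 9.70 kb) over the start and most of the 11.6 kb gene. Grm6, the receptor of retinal ON bipolar cells, ran from 1.24 through 1.47 to 1.64 (mean 1.45 ± 0.128). Grm4, a presynaptic receptor of the same group, ran from 1.3 through 1.37 to 1.45 (mean 1.38 ± 0.0509). The fitted log2 ratios were 0.52 ± 0.04 for Grm6 and 0.46 ± 0.02 for Grm4 (adjusted p = 3.09e-19 and 2.45e-27, edgeR). The 4 remaining genes, Grm3, Grm5, Grm7 and Grm8, had means between 0.978 and 1.00, and none of them was called. Grm8, a presynaptic receptor, ran from 0.948 through 0.974 to 1.04.

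The AMPA and kainate genes lay near or below 1. Gria1, an AMPA subunit central to synaptic plasticity, ran from 0.809 through 0.885 to 0.931 (mean 0.877 ± 0.0452, log2 -0.19 ± 0.02, adjusted p = 2.07e-13, edgeR). Gria2, whose product makes AMPA channels nearly impermeable to calcium, was also called lower at 0.875 ± 0.0437, and Gria4 was not called at 0.972 ± 0.0912. Grik1 ran from 0.881 through 0.936 to 0.998 and was called lower, and Grik3 ran from 0.856 through 1.01 to 1.33 and was not called. Both encode kainate subunits that can form channels by themselves. Grik5, a high-affinity kainate subunit that needs a partner subunit to form a channel, was the 1 kainate gene called higher, at 1.23 ± 0.0845. Grik2 and Grik4 had 1.06 ± 0.0686 and 0.996 ± 0.0385 and were not called. Grid1, an orphan relative of these channels, held 76 peaks, the most of the 35 genes, and was called lower at 0.967 ± 0.0210.

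GABA-A receptor genes lie in clusters on several chromosomes. The lowest 2 of all 35 genes were the chromosome 11 neighbours Gabra6, a subunit of cerebellar granule cells, and Gabrb2, the most common beta subunit of adult brain. Gabra6 ran from 0.572 through 0.794 to 0.861 (mean 0.773 ± 0.101, log2 -0.36 ± 0.07, adjusted p = 2.41e-05, edgeR). Gabrb2 ran from 0.695 through 0.780 to 0.844 (mean 0.775 ± 0.0497, log2 -0.37 ± 0.03, adjusted p = 1.33e-17, edgeR). All 8 conditions of both genes lay below 1. On chromosome 5, Gabra2 and Gabra4 were called higher at 1.11 ± 0.0894 and 1.17 ± 0.111, and Gabrb1, another beta subunit, ran from 0.904 through 0.979 to 1.03 and was not called. Gabrg1 in the same cluster had a mean of only 20.9 input counts in its 1 peak, and its ratio of 0.974 ± 0.351 was not informative. On chromosome 7, Gabra5, known from hippocampus, was called higher at 1.08 ± 0.0389 and Gabrg3 was not called at 1.04 ± 0.0549. Gabrd, the subunit of extrasynaptic GABA-A channels, had 1.29 ± 0.106.

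The GABA-rho genes of retina were both called lower, Gabrr2 at 0.796 through 0.871 to 0.921 (mean 0.867 ± 0.0443, log2 -0.20 ± 0.04, adjusted p = 3.16e-06, edgeR) and Gabrr1 at a mean of 0.944 ± 0.0442. Gabbr2, the subunit that couples the GABA-B receptor to its G protein, was called higher at 1.15 ± 0.0228, while its partner Gabbr1 had no peak. Gene length went with these values. The 10 genes with spans under 50 kb had a median ratio of 1.42, and the 25 longer genes had a median of 0.996. Across the 35 genes, log10 length and mean ratio had a Pearson r of -0.603 and a Spearman rho of -0.414. These describe 35 genes measured in the same libraries. The short genes had 1 to 3 peaks each, and the part of length in the order of the genes was not tested.

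In most of these genes the mark was higher at the start than elsewhere. The start lay inside a peak in 24 of the 27 receptor genes with a promoter window (88.9%), against 28.5% of 17274 protein-coding genes and 53.8% of the 9148 of them that had a peak. The 3 exceptions were Gabbr1, Grin2d and Gabrg1, and in Grin2d and Gabrg1 the start missed the nearest peak by 0.068 kb and 0.096 kb. For Grin2d, on the minus strand, the start of the promoter window (45866681) stood inside the gene span. The 5′ end of that span (45871194) did lie in a peak (chr7:45866749-45872393), with a ratio of 1.85 ± 0.209. Grin2d is thus an exception by its window only. In 19 genes both the peak over the start and the other peaks held a mean of at least 20 input counts. In 16 of these 19 (84.2%) the start peak had the higher ratio in all 8 conditions, and the same held for 1238 of 2567 protein-coding genes (48.2%). Taken singly, 48 of the 618 peaks were called higher and 202 lower than input by edgeR's test, where 7.76% of all peaks were called higher and 36% lower. The median of the start ratio over the ratio of the other peaks was 1.45 in the receptor genes and 1.23 in all those genes.

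Grm7, a presynaptic metabotropic receptor spread over 922 kb, showed the widest gap. Its start peak (chr6:110638084-110650969) had a ratio of 1.68 ± 0.283 and its other 56 peaks together had 0.923 ± 0.0254 (SD, n = 8 conditions). Grm3, Grm8 and Gabrg3 showed the same arrangement, with start peaks at 1.43 ± 0.138, 1.43 ± 0.112 and 1.44 ± 0.118 and other peaks at 0.859 ± 0.0867, 0.897 ± 0.0367 and 0.852 ± 0.0488. Even Gabrb2, which was low as a whole, had 1.07 ± 0.129 at its start and 0.741 ± 0.0517 elsewhere. Gabra4 and Gabrb1, which start near each other and point apart, shared a 17.6 kb peak over both starts (chr5:71650463-71668089) with a ratio of 1.44 ± 0.187. These genes are thus not independent there. Grin1 went the other way in all 8 conditions, with 1.43 ± 0.0579 in the 20.6 kb peak over its start and 1.89 ± 0.268 in the 11.8 kb peak over its far end (chr2:25287524-25299296). Grik5 was mixed, with the start higher in 4 of 8 conditions, and Gabrr2 had it higher in 7 of 8.

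**Figure D2:**
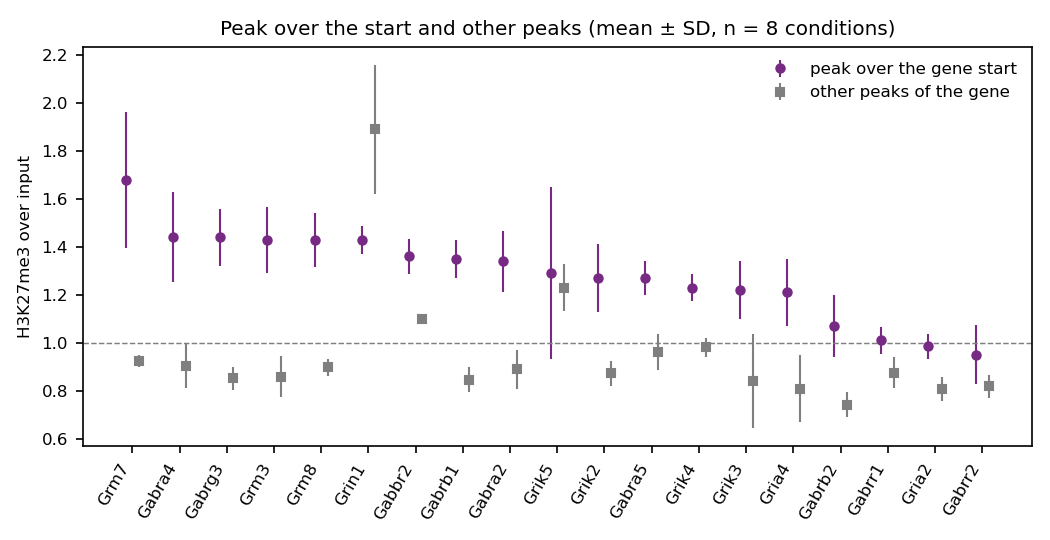
H3K27me3 over input (y axis, ratio of CPM) at the peak over the gene start and at the other peaks of the same gene, for the 19 receptor genes with enough input at both (x axis), as mean ± SD over 8 conditions. The start peak lay above the other peaks in all genes shown except Grin1, by the least in Grik5.

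Between the KO and the WT lines, 7 receptor genes were higher in KO and 3 were lower in edgeR's quasi-likelihood test, adjusted by Benjamini-Hochberg over all 18362 regions. Of all regions 9.69% were called higher and 3.55% lower. The higher genes were all 5 on chromosome 11, with Grik3 on chromosome 4 and Grm4 on chromosome 17, and the lower ones were Grik1, Grm8 and Gabrb1. On chromosome 11 as a whole 85.9% of regions were called higher. Off chromosome 11, 3.8% of regions were higher and 3.82% lower, against 2 and 3 of 30 receptor genes. The 2 KO and 2 WT lines differ in more than Firre, and a difference of background and a difference between lines cannot be told apart. The fit had no term for the line, so the 48 h and 0 h libraries of a line counted as separate samples. Its p-values therefore do not take the line as the unit. All CPM values below are given for 48 h and then 0 h. The called genes passed this test on the same libraries, so separation of their KO and WT libraries is not further support. The share of all regions separated in that way was not counted.

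**Figure D3:**
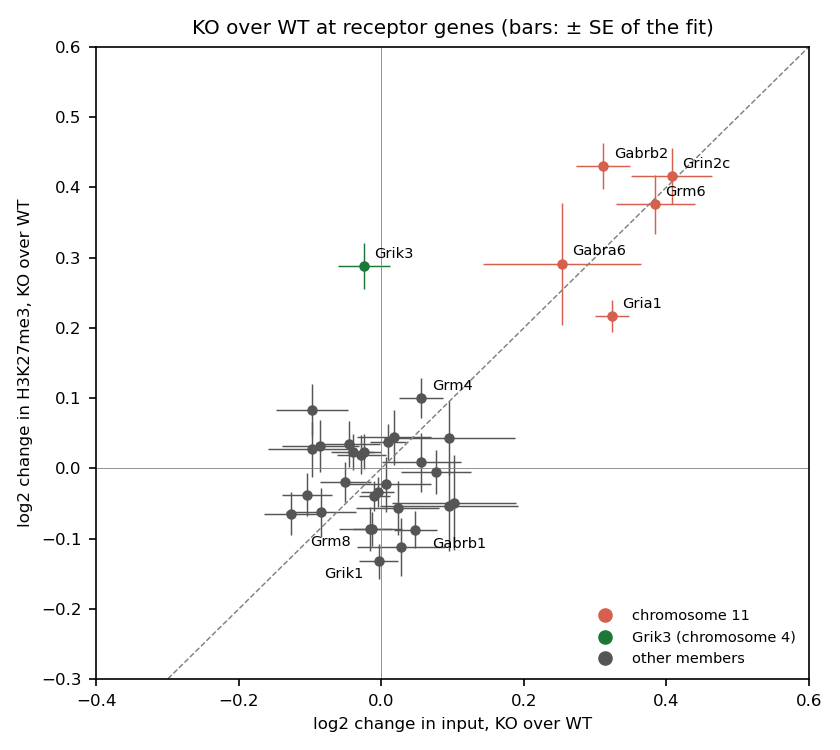
KO over WT change (log2, ± SE of the fit) in H3K27me3 (y axis) against input (x axis) for 34 receptor genes, with the dashed line where both are equal (Gabrg1, at 20.9 mean input counts, is not drawn). The 5 chromosome 11 genes lay above 0 in both assays, and Grik3 was higher in H3K27me3 at 0.29 with -0.02 in input.

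Grik3, which encodes a kainate receptor subunit (chr4:125490259-125714173), was the 1 receptor gene whose KO over WT change in H3K27me3 passed the test against that in input. Its H3K27me3 was 180 and 177 CPM in the KO transgene line and 194 and 204 CPM in the line labelled KO control, against 153 and 157 CPM in the WT transgene line and 151 and 163 CPM in the WT control line. All 4 KO libraries lay above all 4 WT libraries. The log2 change was 0.29 ± 0.03 (adjusted p = 7.00e-08, edgeR). Input showed no such order, with 153 to 180 CPM in KO and 171 to 176 CPM in WT lines and a log2 change of -0.02 ± 0.04. The difference between the H3K27me3 and the input change was 0.31 ± 0.05 (adjusted p = 9.22e-06, edgeR), with 1 of 35 receptor genes past the threshold in that test, which called 0.577% of all regions higher and 0.158% lower. Grik1 at -0.12 ± 0.03 and Gabrb1 at -0.13 ± 0.04 came next in that test, with adjusted p of 0.0533 and 0.0523 by edgeR. Without the line labelled KO control the change was 0.22 ± 0.03 (adjusted p = 7.165e-09, edgeR). That fit sets the KO transgene line against the WT transgene line, so its p-value measures no spread between lines. Fitted on the transgene lines alone the change was 0.21 ± 0.03, which is the same contrast and not a further check. Between the control lines alone it was 0.36 ± 0.03.

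The KO over WT values of Grik3 were larger in the gene body than at its start, a contrast that was not itself tested. The 40.7 kb peak over the start (chr4:125453382-125494085) held 97.0 and 101 CPM in the KO transgene line and 103 and 112 CPM in the line labelled KO control, against 94.2 and 97.0 CPM in the WT transgene line and 89.2 and 95.3 CPM in the WT control line. There the groups met at 97.0 CPM. The other 13 peaks together held 83.2 and 76.2 CPM in the KO transgene line and 91.4 and 92.4 CPM in the line labelled KO control, against 58.8 and 60.1 CPM in the WT transgene line and 61.4 and 67.9 CPM in the WT control line. In these peaks the KO and WT libraries were well separated. Their ratio over input was 0.911 to 1.18 in KO and 0.618 to 0.741 in WT libraries. Each of the 14 peaks had a value above 0, with a median log2 change of 0.50, and 9 passed the threshold over all peaks. The start peak rose by 0.16 ± 0.04 (adjusted p = 0.00823), and the peak at chr4:125579476-125581429 in the body rose by 0.90 ± 0.15 (adjusted p = 3.07e-06, both edgeR).

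**Figure D4:**
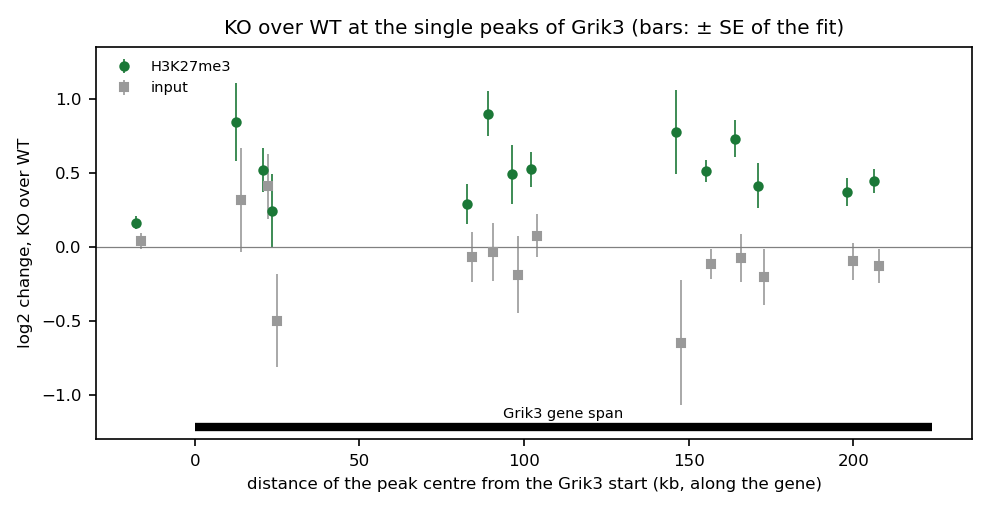
KO over WT change (y axis, log2, ± SE of the fit) in H3K27me3 and in input at the 14 peaks of Grik3, placed by the distance of the peak centre from the gene start (x axis, kb; the bar is the gene span). All 14 H3K27me3 values lay above 0, from 0.16 to 0.90, while input values lay on both sides of 0.

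The peaks around the gene had no such values. The 18 peaks within 200 kb outside Grik3 had a median log2 change of -0.00, and edgeR called none of them. Input at the 14 peaks of Grik3 had a median log2 change of -0.09. Over all receptor genes 35 of 618 single peaks were called higher in KO lines and 3 lower (3.8% and 0.622% of all peaks), of which 9 higher peaks lay in Grik3, 12 in Gria1 and 8 in Gabrb2.

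The 5 chromosome 11 genes were all higher in KO lines. Gabrb2 held 124 and 123 CPM of H3K27me3 in the KO transgene line and 147 and 150 CPM in the line labelled KO control, against 94.4 and 96.1 CPM in the WT transgene line and 109 and 106 CPM in the WT control line (log2 0.43 ± 0.03, adjusted p = 7.84e-11, edgeR). Grin2c held 101 and 109 CPM in the KO transgene line and 117 and 129 CPM in the line labelled KO control, against 82.1 and 89.5 CPM in the WT transgene line and 84.6 and 87.5 CPM in the WT control line (0.42 ± 0.04, adjusted p = 3.17e-09, edgeR). KO and WT libraries did not overlap in either gene. Grm6 held 105 and 100 CPM in the KO transgene line and 110 and 115 CPM in the line labelled KO control, against 88.0 and 85.6 CPM in the WT transgene line and 82.1 and 78.1 CPM in the WT control line (0.38 ± 0.04, adjusted p = 5.57e-08, edgeR). Gria1 held 534 and 538 CPM in the KO transgene line and 570 and 565 CPM in the line labelled KO control, against 473 and 472 CPM in the WT transgene line and 487 and 484 CPM in the WT control line (0.22 ± 0.02, adjusted p = 1.76e-08, edgeR). These too were fully separated. Gabra6 held 12.7 and 12.2 CPM in the KO transgene line and 14.4 and 11.5 CPM in the line labelled KO control, against 11.5 and 8.91 CPM in the WT transgene line and 10.5 and 11.1 CPM in the WT control line (0.29 ± 0.09, adjusted p = 0.0218, edgeR), so that the groups met at 11.5 CPM.

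Input was called higher in KO lines at 4 of these 5 genes. The log2 change of input was 0.31 ± 0.04 in Gabrb2, 0.41 ± 0.06 in Grin2c, 0.38 ± 0.06 in Grm6 and 0.32 ± 0.02 in Gria1, all past the threshold of edgeR's test, and 0.25 ± 0.11 in Gabra6, which was not. Input was called higher in 5.52% and lower in 0.186% of all regions, and higher in 75.7% of those on chromosome 11. Off chromosome 11, 0.065% of regions were higher and 0.201% lower in input. Gria1 was higher in H3K27me3 by less than in input, and the difference of the changes was -0.10 ± 0.03 (adjusted p = 0.0929, edgeR). For the other 4 that difference ran from 0.00 ± 0.07 in Grm6 to 0.12 ± 0.05 in Gabrb2, with adjusted p of 0.321 or more. A gain of H3K27me3 beyond the gain in input was not detectable in them at these errors. Gabra5, off chromosome 11, was the 1 receptor gene lower in KO input, at -0.13 ± 0.04 (adjusted p = 0.0298, edgeR).

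The changes at the 4 remaining genes were small. Grik1 held 311 and 316 CPM in the KO transgene line and 300 and 306 CPM in the line labelled KO control, against 342 and 352 CPM in the WT transgene line and 337 and 333 CPM in the WT control line (log2 -0.13 ± 0.02, adjusted p = 1.94e-04, edgeR). All KO libraries lay below all WT libraries, and the change was -0.14 ± 0.03 without the line labelled KO control (adjusted p = 3.07e-06, edgeR). Gabrb1 held 279 and 265 CPM in the KO transgene line and 266 and 265 CPM in the line labelled KO control, against 287 and 287 CPM in the WT transgene line and 288 and 291 CPM in the WT control line (-0.09 ± 0.03, adjusted p = 0.0230, edgeR). Grm8 held 355 and 366 CPM in the KO transgene line and 349 and 349 CPM in the line labelled KO control, against 375 and 382 CPM in the WT transgene line and 382 and 383 CPM in the WT control line (-0.09 ± 0.02, adjusted p = 0.0136, edgeR). These groups did not overlap either. Grm4 held 341 and 338 CPM in the KO transgene line and 369 and 356 CPM in the line labelled KO control, against 340 and 331 CPM in the WT transgene line and 325 and 325 CPM in the WT control line (0.10 ± 0.03, adjusted p = 0.0147, edgeR), and its groups overlapped. Without the line labelled KO control Grm4 was at 0.03 ± 0.03, Grm8 at -0.06 ± 0.02 and Gabrb1 at -0.07 ± 0.03, with adjusted p of 0.667, 0.0997 and 0.123 by edgeR, and Gabra6 was at 0.30 ± 0.12 (adjusted p = 0.107). Grik1, Grik3, Gria1, Grin2c, Grm6 and Gabrb2 stayed past the threshold without that line, and Grik4 at 0.07, Grin3b at -0.22 and Gabbr2 at -0.05 then passed it too. Without that line the KO over WT term is 1 line against 1 line, each seen at both times. The p-values of that fit measure no spread between lines, so these calls do not show that a change is one of background. Over all regions 1726 were called without that line, higher or lower, against 2430 with it. The KO over WT change itself differed between transgene and control lines in 5 receptor genes by the interaction term of edgeR's test, higher for Grik4 and lower for Grin2c, Grin3b, Grm4 and Grm6, where 0.637% of all regions were called higher and 3.2% lower. In input 0 receptor genes were called for that term, with 0.0165% of regions higher and 0.176% lower. Grin2c and Grm6 lie on chromosome 11, whose share of input also differed between the KO lines. For that term each group is 1 line seen at both times, so its p-values measure no spread between lines.

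Between transgene and control lines, over both times, Gabrb2 was the 1 receptor gene called. This term came from the same fit as KO over WT, in which both times of a line counted as separate samples. Its H3K27me3 CPM, given above, were lower in the transgene line of each background at both times, with a log2 change of -0.24 ± 0.03 (adjusted p = 4.48e-04, edgeR). Of all regions 0.207% were called higher and 1.24% lower. The change in input was -0.11 ± 0.04 (adjusted p = 0.293) and the difference between the assays was -0.11 ± 0.05 (adjusted p = 0.968, edgeR). Without the line labelled KO control Gabrb2 was at -0.19 ± 0.04 (adjusted p = 0.001325), and Grik4, the other high-affinity kainate subunit, was then called lower at -0.08 ± 0.02 (adjusted p = 0.0149, edgeR). The transgene term of that fit sets the WT transgene line against the WT control line. Its p-values thus measure no spread between lines. Over all regions 436 were called without that line, higher or lower, against 265 with it. Input of Gria1 was lower in transgene lines at -0.13 ± 0.02 (adjusted p = 0.00215, edgeR). Of all regions, input was called higher in 0.0274% and lower in 0.274%.

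Over 48 h of doxycycline, H3K27me3 at the receptor genes moved little. Grin2c was the 1 gene called, lower at 48 h by a log2 change of -0.11 ± 0.03 (adjusted p = 0.0266, edgeR), where 0.474% of all regions were called higher and 1.49% lower. The ratio of 48 h over 0 h CPM was 0.921 in the KO transgene line, 0.910 in the line labelled KO control, 0.917 in the WT transgene line and 0.967 in the WT control line. The 95% intervals, which cover counting error only, were 0.856 to 0.992, 0.845 to 0.981, 0.844 to 0.996 and 0.890 to 1.05. All 4 lines were lower at 48 h, and the interval of the WT control line reached past 1. Input at Grin2c changed by -0.08 ± 0.06 and the difference between the assays was -0.02 ± 0.07 (adjusted p = 0.996, edgeR). The call was lost without the line labelled KO control, at -0.10 ± 0.03 (adjusted p = 0.159, edgeR), and with no block for the line, at -0.10 ± 0.14. No input region changed with time in edgeR's test, at 995 of 18232 with an unadjusted p under 0.05. Grik3, so different between backgrounds, had -0.05 ± 0.02 (adjusted p = 0.363, edgeR). The highest value was 0.16 ± 0.09 in Gabra6, with adjusted p of 0.394.

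Induction of Firre was tested as the change over 48 h in the transgene lines minus that in the control lines. Those control lines include the line labelled KO control, whose input at Firre went against its label. By edgeR's quasi-likelihood test 0 of 35 receptor genes were called. An unadjusted p under 0.05 was reached by 2 of them with edgeR and by 0 with DESeq2, and 0.00545% of all regions were called higher and 0.0436% lower. Grik3 was at 0.09 ± 0.05 (adjusted p = 0.920), Grin2c at -0.02 ± 0.06 (adjusted p = 0.989), Grm2 at 0.04 ± 0.09 (adjusted p = 0.989) and Grin1 at -0.02 ± 0.06 (adjusted p = 0.989, all edgeR). Of the 618 single peaks 0 were called for time, induction or transgene by edgeR. Of all peaks 0.0068% were called higher and 0.102% lower for time, 0.00583% lower for induction, and 0.0291% higher and 0.0457% lower for the transgene. With 1 library a condition, changes smaller than these errors would not be detectable.

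**Figure D5:**
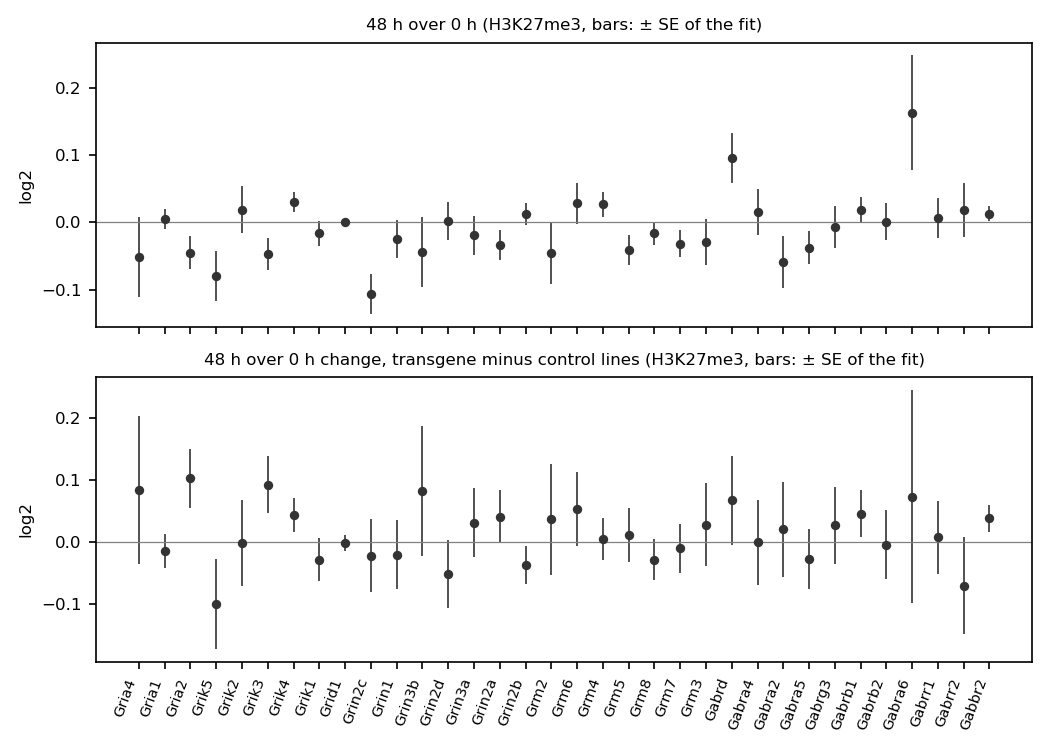
Log2 change of H3K27me3 at 48 h over 0 h (top) and that change in transgene minus control lines (bottom), ± SE of the fit, for 34 receptor genes (Gabrg1 is not drawn). Most values lay within 0.1 of 0, and Grin2c at -0.11 in the top panel was the 1 value called.

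Related gene lists were counted in the same way, and the lists were not compared by a test. Of 11 further glutamate and GABA receptor genes all had a peak, and 5 were called higher and 3 lower over input, with a median log2 of 0.03. Of 20 genes for the synthesis and transport of glutamate and GABA, 19 had a peak, and 8 were higher and 4 lower, with a median of 0.05. Of 35 auxiliary and scaffold proteins of the receptors, 29 had a peak, and 17 were higher and 9 lower, with a median of 0.12. Of 20 glycine and nicotinic receptor genes, 19 had a peak, and 6 were higher and 9 lower, with a median of 0.01. The median was 0.00 in the 35 receptor genes and -0.07 in all regions. Between KO and WT lines these lists had 2, 1, 5 and 3 genes higher and 0, 2, 4 and 0 lower in KO, where 9.69% of all regions were higher and 3.55% lower. Of these 11 higher genes, 10 lay on chromosome 11, where 85.9% of regions were called higher. Induction moved none of them by edgeR's test. The 6 neural regulators stood far higher, at a median log2 of 0.73 over input, and 4 of them were called lower at 48 h by edgeR, where 1.49% of all regions were. In edgeR's test of the change over time against that in input, 0 of 18360 regions were called, and 847 had an unadjusted p under 0.05.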

How the data were processed

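H3K27me3 ChIP and input libraries of 4 mouse embryonic stem cell lines at 48 h and 0 h were used, 1 of each per condition. The authors deposited raw counts of reads for each of 102957 consensus peaks and library, and a peak list with a fold (ratio), -log10 q-value and a score for each peak, per the file headers. The submitters' processing notes list the build mm10, featureCounts, MACS2 2.2.71, DESeq2 1.26.0 and BWA 0.7.17-r1188, with no role. The libraries used for calling peaks are not given in the sources used here. Peak starts are printed as deposited.

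Peaks overlapping a gene span with 2 kb on each side were summed per gene. Genes with the same peaks form 1 region, and lncRNA genes were kept beside protein-coding ones. Counts were tested with edgeR 4.0.16 (R 4.3.3, quasi-likelihood test, TMM scaling, filterByExpr) over all regions, with Benjamini-Hochberg adjustment and a threshold of 0.05. H3K27me3 over input used total counts with the condition as a block. The time fit had the line as a block, induction was the transgene by time term, and background and transgene were fitted together with time. That last fit had no term for the line. Library size was the counts in consensus peaks, so the ratio of CPM is relative to the average peak. limma 3.58.1 and DESeq2 1.42.0 served as alternatives, and Python 3.11.15, pandas 2.3.3 and scipy 1.17.1 for the rest. The fit was tested on simulated data.

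Genes given with full statistics were those on chromosome 11, the 6 highest and 3 lowest mean ratios, and those called for time, induction, background or transgene, up to 8 a comparison by size. Grm8 and Gabrb1 fell outside that limit for background and were added so that all called genes have values. Other genes are given by single values, and any that a sentence singles out were chosen after their values were seen. The members and lists were chosen with earlier results of these data known. Alternatives covered scaling, tool, filter, flank, peak fold, chromosome 11, input offsets and leaving out libraries or the line labelled KO control.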

Additional observations from a re-analysis of the deposited data

Results flagged for a closer look

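In a screen for single libraries far from the rest of their group, 3 of 28 groups of 4 conditions were flagged, where chance flags about 1 in 20. Gabra6 had an H3K27me3 over input ratio of 0.572 in the line labelled KO control at 0 h, against 0.846 to 0.861 in the other KO conditions. Gabra6 also had 0.845 in the WT transgene line at 48 h, against 0.726 to 0.744 in the other WT conditions. Grik3 had 1.33 in the line labelled KO control at 0 h, against 1.06 to 1.08 in the other KO conditions. That condition had the lowest total counts in both assays.

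The KO over WT change differed between transgene and control lines in 5 receptor genes by the interaction term of edgeR's quasi-likelihood test (Benjamini-Hochberg), where 0.637% of all regions were called higher and 3.2% lower. The term was -0.2364 in Grin2c (adjusted p = 0.00465), with a change of 0.30 between transgene and 0.53 between control lines. It was -0.2579 in Grm6 (adjusted p = 0.00182, edgeR), with 0.25 and 0.51. In Grm4 it was -0.1528 (adjusted p = 0.00164, edgeR), with 0.02 and 0.18. In Grin3b it was -0.3564 (adjusted p = 0.0253, edgeR), with -0.22 and 0.13. In Grik4 it was 0.0987 (adjusted p = 0.0240, edgeR), with 0.07 and -0.02. The control lines include the line labelled KO control, and its part in these terms cannot be told apart from that of the transgene. Each group of this term is 1 line seen at both times, so the p-values measure no spread between lines. In input no receptor gene was called for this term by edgeR, where 0.0165% of regions were higher and 0.176% lower.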

How the results depend on the processing

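Counts of called receptor genes stayed within 1.5 times the reported count in 184 of 218 alternatives. These include counts of 0 that stayed at 0, as for induction, so the figure is no measure of how stable the calls are. H3K27me3 over input was stable, at 14 to 15 higher and 9 to 10 lower when 1 condition was left out. KO over WT had 5 to 7 higher and 1 to 3 lower when 1 library was left out. The 7 higher became 1 with input as offset, 1 as a difference from the change in input and 2 with chromosome 11 left out. The 3 lower became 5 with total counts, 1 with DESeq2, 0 with input as offset and 0 as a difference from input. Gria1 reversed in sign, to -0.0904 with input as offset (adjusted p = 0.175) and -0.10 as a difference from input (adjusted p = 0.0929, both edgeR). Neither reversed value was called. The KO over WT change of Gria1 was 0.32 in input and 0.22 in H3K27me3. The single gene lower in KO input became 2 with total counts. Grik3 kept its direction and its call between KO and WT throughout, at 0.21 to 0.36. The values 0.21 and 0.36 are those between the transgene lines alone and the control lines alone, each 1 line against 1 line. The 1 gene lower in transgene lines became 0 with input as offset, 0 as a difference from input and 0 with chromosome 11 left out. That count became 2 without the line labelled KO control and 2 in WT lines only, which are the same contrast of 1 line against 1 line. In KO lines only, also 1 line against 1 line, it became 6, and it was 1 to 2 when 1 library was left out. The 1 gene lower at 48 h (Grin2c) became 0 with DESeq2, input as offset, an offset that follows enrichment, chromosome 11 left out, no line block, the difference from input, either background alone and without the line labelled KO control, and 0 to 1 when 1 library was left out. The causes of these shifts were not tested. The difference from input, the single-background time fits, total counts for input and the interaction terms were chosen after seeing the data. No paired analysis was possible because the replicate number is 1 in every group, as far as pairing by that number goes. The 48 h and 0 h libraries of a line were paired by the line block of the time fit.

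Each condition has 1 library per assay, and 2 lines stand for each background, so differences of genotype and of line cannot be told apart. Input in consensus peaks was the shallower assay. Counting intervals cover counting error only.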
